A study of Mus musculus with 6 samples.

Results

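The genes described here encode voltage-gated potassium channel subunits of the Kv1 (shaker) family: Kcna3, Kcna4, Kcna5 and Kcna7. They were read from the spots that a neurotransmission oligonucleotide array prints in its potassium channel class under names of the kv1 series. Each gene has 2 oligonucleotides (oligos), and each oligo has 2 spots on every array. The 4 genes therefore gave 8 of the 590 gene oligos of the array, and 8 of the 136 of the potassium channel class. The printed series holds 3 further entries with 6 oligos, which were counted but are not described by gene. Tissues of adult B10D2 mice, labelled cortex and thymus, were compared without any treatment, with 3 one-colour arrays each. Every cortex array received 15 µg of Cy5-labelled RNA from 1 pool of 6 cortices, and every thymus array 15 µg from 1 pool of 5 thymi. The 3 arrays of a tissue are thus repeated hybridizations of 1 pool: the p-values measure the spread between hybridizations and not between mice. The title of the series is about the kinetics of on-chip hybridization, and no label says why these tissues were set against each other.

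Kv1 channels are tetramers of pore-forming subunits that open when the membrane depolarizes and let potassium leave the cell, which returns the membrane toward rest. In neurons they sit on axons and terminals and limit repetitive firing. In human T lymphocytes the channel built from Kcna3 holds the membrane potential that drives calcium entry after antigen recognition, and blockers of it dampen effector memory T cells. Kcna4 forms a rapidly inactivating (A-type) channel, Kcna5 a delayed rectifier known from human cardiac atrium, and Kcna7 a channel known mainly from skeletal muscle and heart.

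The entries of Kcna3, Kcna4 and Kcna5 were named by matching the printed channel name to RefSeq synonyms, with its comma read as a point. Kcna3 is printed kv1,3b, and the final letter was dropped for the match. The entry printed as kv1,8 carries the RefSeq accession of Kcna7, while RefSeq lists that channel name for another gene; it is called Kcna7 here by its accession. The oligo sequences were not analysed here, so the position of each oligo in its transcript is not given. RefSeq promoters (GRCm38.p6, 250 bases before to 50 after the annotated start, 5′ to 3′ on the gene's strand) were matched for all 4 genes. Those of Kcna3 and Kcna7 are shown because these are the genes with both oligos called in the same direction between the tissues. The Kcna3 window lies on the + strand at chr3:107035912-107036211 and the Kcna7 window on the + strand at chr7:45405710-45406009. Capitals mark matches to 6 motifs searched on both strands: the GC box GGGCGG, the TATA motif TATAAA, the core TGTGGT read by Runx factors, the core CCGGAA read by ETS factors, the E-box CAGCTG and the CCAAT box.
Kcna3: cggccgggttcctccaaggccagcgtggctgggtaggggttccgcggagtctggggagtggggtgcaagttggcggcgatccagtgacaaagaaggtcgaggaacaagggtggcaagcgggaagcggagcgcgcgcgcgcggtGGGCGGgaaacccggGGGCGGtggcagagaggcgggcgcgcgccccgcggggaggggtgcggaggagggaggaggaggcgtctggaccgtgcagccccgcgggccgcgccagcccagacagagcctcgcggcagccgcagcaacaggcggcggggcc
Kcna7: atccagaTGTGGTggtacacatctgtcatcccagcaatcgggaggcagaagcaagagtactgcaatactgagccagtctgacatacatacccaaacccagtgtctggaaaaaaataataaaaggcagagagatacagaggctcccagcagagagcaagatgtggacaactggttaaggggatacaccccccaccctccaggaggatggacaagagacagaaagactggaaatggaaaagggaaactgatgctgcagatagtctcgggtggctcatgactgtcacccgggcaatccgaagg
The windows have little in common in base composition. The Kcna3 window is 75% G and C with 37 CpG dinucleotides, and 96.1% of the 32851 promoters of the table have a lower G and C content. The Kcna7 window is 50.3% G and C with 4 CpG dinucleotides. Kcna3 holds the GC box GGGCGG at 2 positions, which 35.7% of all promoters of the same length hold at least once. Kcna7 holds TGTGGT at position -243 from the start, and 16.8% of promoters hold it. TATAAA (13.6% of promoters), CCGGAA (14.9%), CAGCTG (16.3%) and CCAAT (37.4%) had no match in either window, and no matches overlapped. These letters describe the windows only.

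The cortex arrays were brighter as a whole, and this bears on every direction below. Between 419 and 509 gene oligos were above background on the cortex arrays and between 270 and 393 on the thymus arrays. The median net signal (spot median minus local background median, in scanner units) was 830 to 2542 for cortex and 480 to 956 for thymus. These ranges overlapped, as cortex 3 (830) lay below thymus 1 (956). The image file names in the headers held 3 different number pairs, read here as scan settings. What these pairs stand for was not checked. Cortex 1, cortex 2 and thymus 1 shared the first setting, cortex 3 and thymus 2 the second, and thymus 3 had the third to itself. Across oligos (which are no independent replicates) the scaled arrays correlated at Pearson's r of 0.916 to 0.950 within cortex, 0.801 to 0.874 within thymus and 0.583 to 0.687 across tissues. As a check of the tissue label, 5 of 6 oligos of neuronal markers (Eno2 and Gad2 entries) were called higher in cortex. Over all tested oligos 24.3% were called so. The sixth neuronal oligo differed by 0.12 log2 units. Oligo 2 of each Gad2 entry was above background on no thymus array. It was tested only because of its cortex arrays, so its call adds nothing to this check. The Gad2 entries are printed gad65 and GAD67, and the latter is called Gad2 by its accession. Of the 2 oligos of Mbp, a myelin protein gene, 1 was called higher in cortex (3.66) and the other higher in thymus (-1.44; adjusted p = 0.00347, limma), against the label. Of 2 oligos of Pax5, a B lineage factor, 1 was called higher in thymus. No thymocyte or T cell marker of the list used was on the array. Thymocyte content was therefore not checked, and fewer cells of a type cannot be told apart from less RNA per cell.

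Mean net signals of Kcna3 were higher with thymus RNA although the thymus arrays were dimmer as a group. For oligo 1 the net signals were 1354, 807 and 528 on the cortex arrays and 1741, 2451 and 1536.5 on the thymus arrays. In these means of 2 spots, all 3 thymus arrays lay above all 3 cortex arrays before any scaling. Of the 465 oligos tested, 9 had this pattern in the unscaled net signal (1.94%), while 34% had all cortex arrays above all thymus arrays. Single spots of oligo 1 did overlap. Its spots gave 2254 and 819 on thymus 3 (1.25 log2 units apart) and 2219 and 1262.5 on thymus 1, against 1530 and 1177.5 on cortex 1. For oligo 2 of Kcna3 the cortex arrays gave 1310, 669 and 534, and the thymus arrays 1378, 2687 and 581. Here the tissues overlapped before scaling, since thymus 3 lay below cortex 1 and cortex 2. That thymus value did not count as above background: a spot is above background when its median exceeds the local background median by 2 background SD, an oligo when more than 50% of its unflagged spots are, and here 1 of the 2 spots was.

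**Figure D1:**
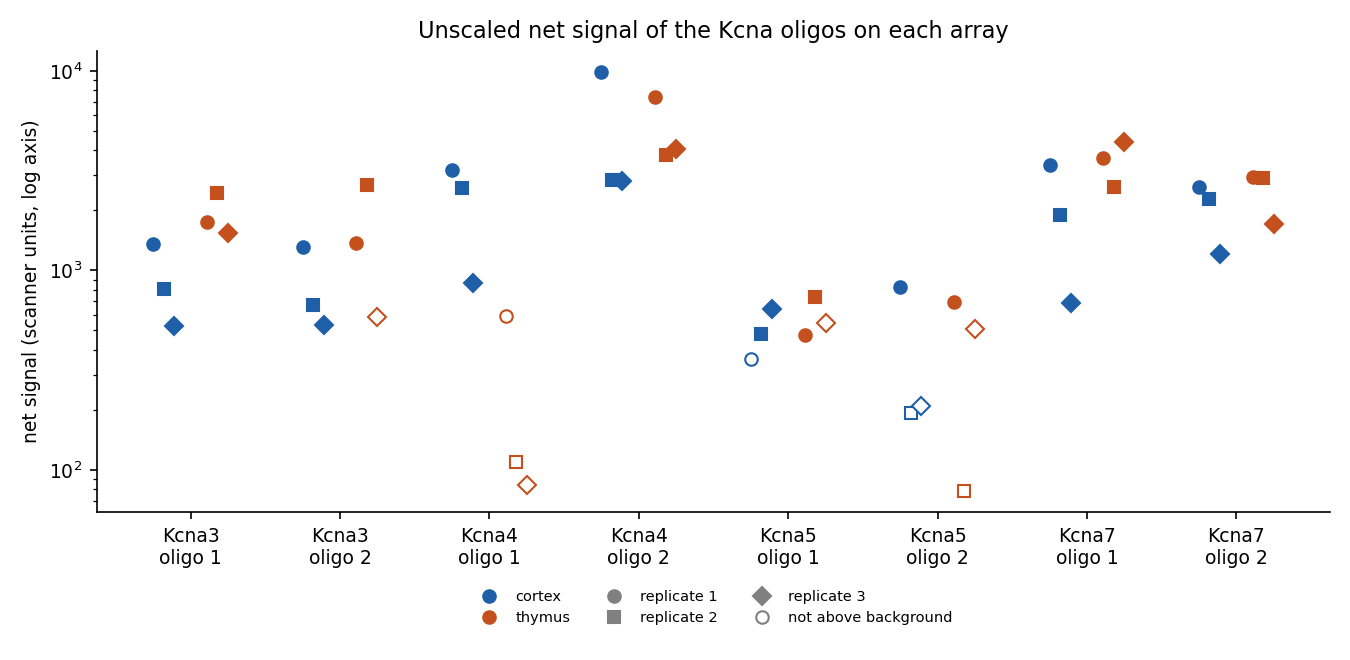
Unscaled net signal (scanner units, log axis) of the 8 Kcna oligos on each array; marker shape gives the replicate, and open markers are values not above background. The 3 thymus values of Kcna3 oligo 1 lie above its 3 cortex values, and the 3 thymus values of Kcna4 oligo 1 lie below its cortex values and are open.

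After quantile scaling of log2 intensities both Kcna3 oligos were higher in thymus. Oligo 1 stood at 9.52, 9.31 and 9.67 log2 units on the cortex arrays and 10.89, 12.22 and 11.40 on the thymus arrays, with no overlap. It was 4.02-fold brighter in thymus, a cortex minus thymus difference of -2.01 ± 0.39 log2 units (SE, n = 3 arrays per tissue; adjusted p = 0.000432, limma). Oligo 2 stood at 9.49, 9.11 and 9.67 in cortex and 10.64, 12.34 and 10.18 in thymus, again with no overlap. It was 3.09-fold brighter in thymus, a difference of -1.63 ± 0.46 (adjusted p = 0.00815, limma). Its thymus arrays spread widely, with an SD of 1.14 against 0.29 in cortex, and 2 of its 12 spots were left out because the scanner software had flagged them. Without cortex replicate 2 its difference was -1.46 (adjusted p = 0.0740, limma), which missed the threshold of 0.05. Oligo 1 kept its call with each array left out in turn, at -2.31 to -1.66.

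Both oligos of Kcna7 were also higher in thymus. Net signals of oligo 1 were 3392.5, 1907 and 684 on the cortex arrays and 3680, 2615 and 4405 on the thymus arrays, and only cortex 1 exceeded any thymus array. After scaling its levels were 10.64, 10.24 and 9.95 in cortex and 11.86, 12.29 and 12.75 in thymus. The scaled tissues did not overlap, and the oligo was 4.07-fold brighter in thymus (-2.02 ± 0.37 log2 units, SE, n = 3 arrays per tissue; adjusted p = 0.000301, limma). Net signals of oligo 2 were 2616, 2283 and 1209.5 in cortex and 2955, 2909 and 1708 in thymus, so that thymus 3 fell between the cortex arrays. Its scaled levels were 10.30, 10.57 and 10.77 in cortex and 11.60, 12.44 and 11.74 in thymus. These did not overlap, and the oligo was 2.61-fold brighter in thymus (-1.38 ± 0.36; adjusted p = 0.00511, limma). All 12 values of Kcna7 were above background and none of its spots was flagged. Markers of muscle on the array were few: of 4 oligos of Scn4a and Chrna1, 2 were tested, differed by -0.42 and -0.41, and did not pass. The part of muscle RNA in the Kcna7 values was not tested.

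The 2 oligos of Kcna4 were called in opposite directions. Oligo 1 gave net signals of 3188.5, 2598.5 and 866.5 on the cortex arrays and 592, 109.5 and 83.5 on the thymus arrays. Every cortex array exceeded every thymus array before scaling, and no thymus array was above background. After scaling it stood at 10.56, 10.71 and 10.38 in cortex and 9.72, 9.08 and 8.72 in thymus. The fitted difference was 1.38 ± 0.37 log2 units (SE, n = 3 arrays per tissue; adjusted p = 0.00539, limma). Because no thymus value was above background, the cortex mean was also set against a floor, which gave an approximate bound of 1.58-fold. On each array the floor was the higher of the oligo's own level and the lowest level of any oligo above background. This is not the detection limit of the oligo's own spots, so the ratio could be lower. The oligo was tested only because of its 3 cortex arrays, so its call lends no weight to a count.

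Oligo 2 of Kcna4 was bright in both tissues. Its net signals were 9925, 2832.5 and 2817.5 on the cortex arrays and 7397, 3774.5 and 4073.5 on the thymus arrays, which overlap. Scaled levels were 12.01, 10.28 and 12.09 in cortex against 12.73, 12.74 and 12.72 in thymus, without overlap, a difference of -1.27 ± 0.44 (adjusted p = 0.0238, limma). This value rests largely on cortex 2, where the 2 spots of the oligo disagreed, with net signals of 5089 and 576. That pair differed by 2.68 log2 units, the widest of the 44 unflagged spot pairs of the Kcna oligos, whose median difference was 0.46. Without cortex replicate 2 the difference was -0.70 (adjusted p = 0.169, limma). It also missed the threshold without thymus replicate 1, at -1.24.

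Kcna5 was close to background. Oligo 1 gave net signals of 360, 480 and 641 on the cortex arrays and 477, 733 and 544 on the thymus arrays, and was above background on 2 arrays of each tissue. Scaled levels were 8.14, 8.81 and 9.96 in cortex and 9.55, 10.78 and 10.25 in thymus, so that cortex 3 overlapped with thymus. The difference was -1.22 ± 0.45 log2 units (SE, n = 3 arrays per tissue; adjusted p = 0.0340, limma). It lost the threshold when cortex replicate 1, cortex replicate 2 or thymus replicate 2 was left out, at -0.81, -1.12 and -0.97. It also lost it when the flagged spot on thymus 3 was kept, at -0.87 (adjusted p = 0.179, limma). Oligo 2 gave 826, 192 and 209 in cortex and 691, 78 and 508 in thymus, was above background on 1 array of each tissue and was not tested. Its scaled difference was -0.96 log2 units.

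**Figure D2:**
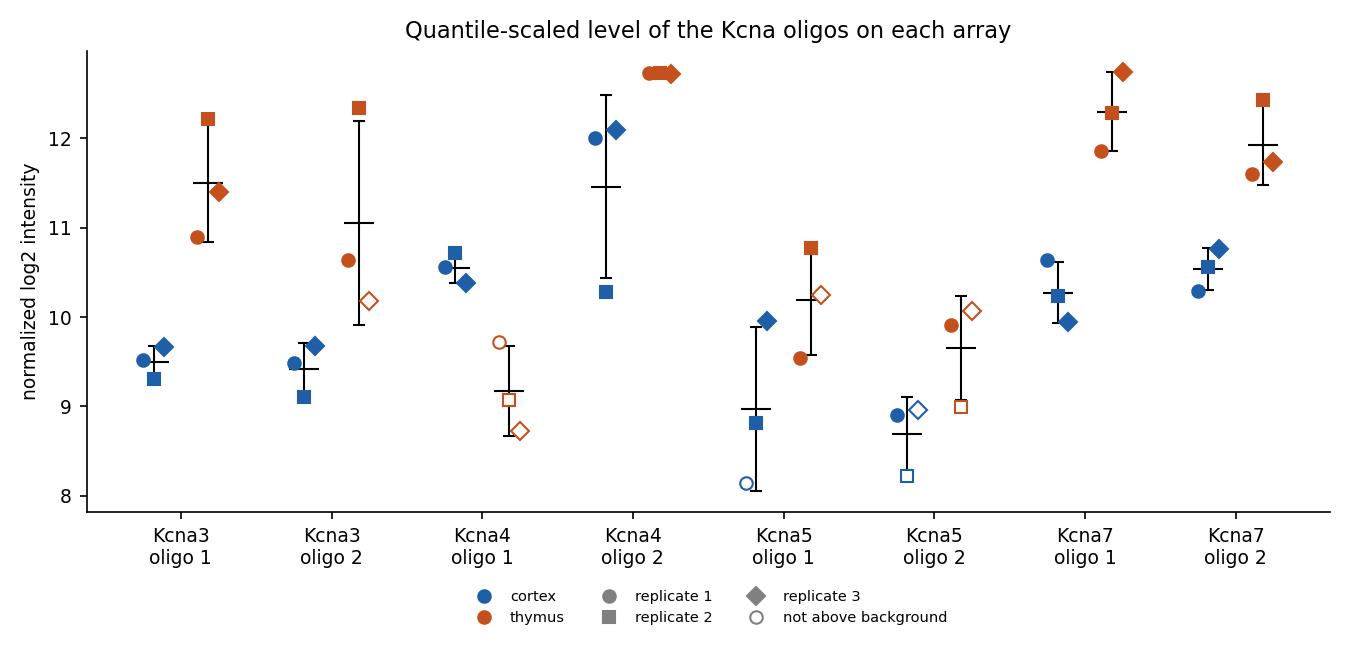
Quantile-scaled log2 intensity of the 8 Kcna oligos on each array; horizontal bars and whiskers give the mean and SD of 3 arrays, and open markers are values not above background. Kcna3, Kcna7 and Kcna4 oligo 2 lie higher in thymus and Kcna4 oligo 1 higher in cortex, while the tissues overlap for Kcna5 oligo 1.

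Of the 8 oligos, 7 were tested; 6 were called higher in thymus and 1 higher in cortex by limma. Over all 465 tested oligos, 23.7% were called higher in thymus and 24.3% higher in cortex, 48% in either direction. The median difference of the 7 was -1.38 log2 units against -0.10 over all tested oligos. The 2 tissues did not overlap for 6 of the 7, and for 55.7% of all. The 6 oligos of the further kv1 entries were all tested and were mixed: 2 were called higher in cortex, 1 higher in thymus and 3 did not pass, with a median of 0.42. Over the whole printed series of 13 tested oligos, 7 were called higher in thymus and 3 higher in cortex, with a median of -1.22.

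The direction of the Kcna differences held under 4 scalings, but the number of calls did not. Centring each array on the median of its gene probes gave the same calls, 6 higher in thymus and 1 in cortex, where 25.4% and 23% of all tested oligos were called so. Centring on the printed control class left 2 Kcna oligos higher in thymus, oligo 1 of Kcna3 at -1.37 (adjusted p = 0.0138, limma) and oligo 1 of Kcna7 at -1.41 (adjusted p = 0.0107, limma), with 6.02% of all tested oligos called higher in thymus and 30.5% higher in cortex. With no scaling none of the 7 was called higher in thymus by limma. None of the 6 with that direction had an unadjusted p under 0.05. In that fit all 7 oligos had the same SE (0.73), so these p-values follow the size of the difference alone. Of all tested oligos 0% were called higher in thymus without scaling, against 25.2% higher in cortex. The split over all oligos was 113 higher in cortex and 110 in thymus under quantile scaling, 107 and 118 under median centring, 142 and 28 under control centring, and 117 and 0 without scaling. The median of all tested oligos moved from -0.10 to -0.15, 0.48 and 0.86 in these settings. Relative to that median, oligo 1 of Kcna3 lay at -1.91, -1.85, -1.85 and -1.84, and oligo 1 of Kcna7 at -1.93, -1.90, -1.90 and -1.89. Oligo 1 of Kcna4 lay at 1.48, 1.41, 1.41 and 1.42, and was called higher in cortex in all 4. Median centring, control centring and no scaling differ only by 1 constant per array. The near equality of these distances among them is thus given in advance and is no sign of stability.

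**Figure D3:**
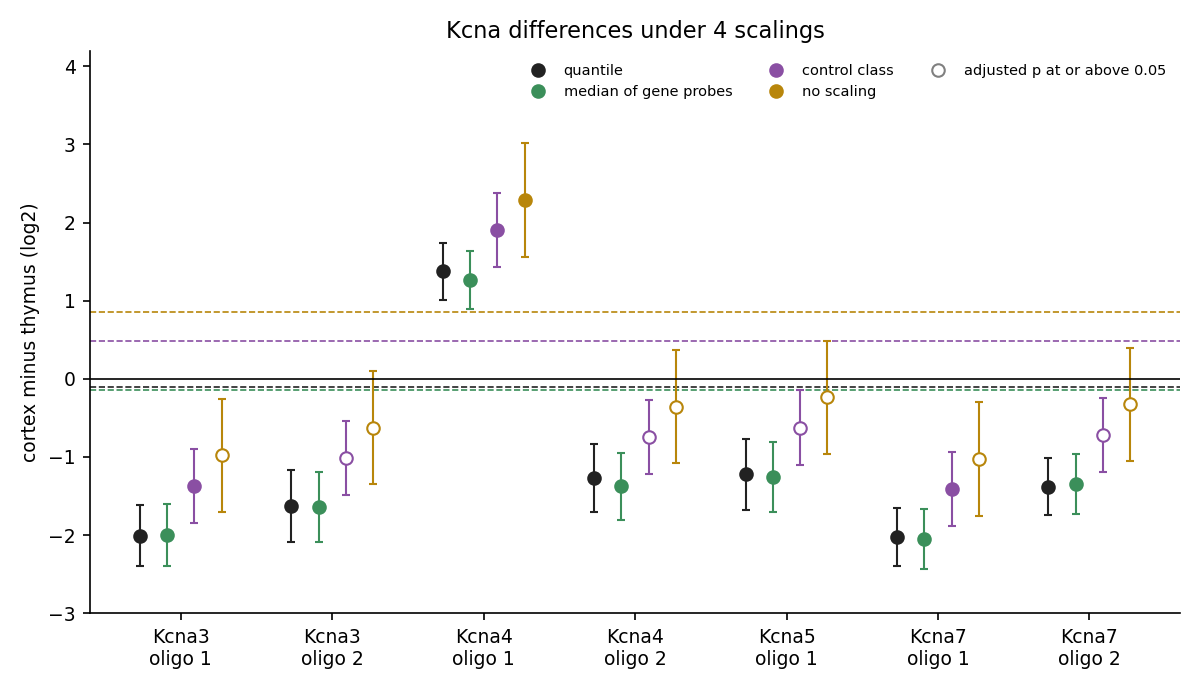
Cortex minus thymus difference (log2, whiskers SE) of the 7 tested Kcna oligos under quantile scaling, centring on gene probes, centring on the control class and no scaling; filled points have an adjusted p under 0.05 and dashed lines mark the median of all tested oligos in each setting. Every point keeps its sign, while the median line moves from -0.10 to 0.86. Without scaling all 7 oligos have the same SE.

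Within the scan settings that held both tissues every Kcna oligo kept its sign. In the first setting Kcna3 oligo 1 differed by -1.48 log2 units and in the second by -2.55. Kcna7 oligo 1 differed by -1.42 and -2.34. Kcna4 oligo 1 differed by 0.92 and 1.30, and Kcna4 oligo 2 by -1.59 and -0.65. These rest on 1 array of at least 1 tissue and carry no test.

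A brightness shift common to an array cancels when 2 oligos are compared on the same array. For Kcna4, oligo 1 minus oligo 2 was -1.44, 0.44 and -1.71 log2 units on the cortex arrays and -3.01, -3.66 and -4.00 on the thymus arrays. The tissues did not overlap, and the contrast changed by 2.65 log2 units (p = 0.1, two-sided exact permutation test, the smallest that 3 arrays against 3 can give; adjusted p = 0.195 over 78 pairs). Oligo 1 of Kcna4 was not above background on any thymus array, so every contrast that holds it rests on thymus values near background. Kcna3 oligo 1 minus Kcna4 oligo 1 changed by -3.39 (exact permutation p = 0.1), from a cortex range of -1.41 to -0.71 to a thymus range of 1.17 to 3.14. Kcna4 oligo 1 minus Kcna7 oligo 1 changed by 3.40 (exact permutation p = 0.1). In contrast, the 2 oligos of Kcna3 overlapped between tissues (change of -0.38, exact permutation p = 0.6), as did those of Kcna7 (change of -0.64, exact permutation p = 0.3). Among the 21 pairs of the 7 tested Kcna oligos, 7 did not overlap (33.3%), against 40 of 78 pairs (51.3%) in the whole printed series. Of those 7, 6 hold oligo 1 of Kcna4.

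**Figure D4:**
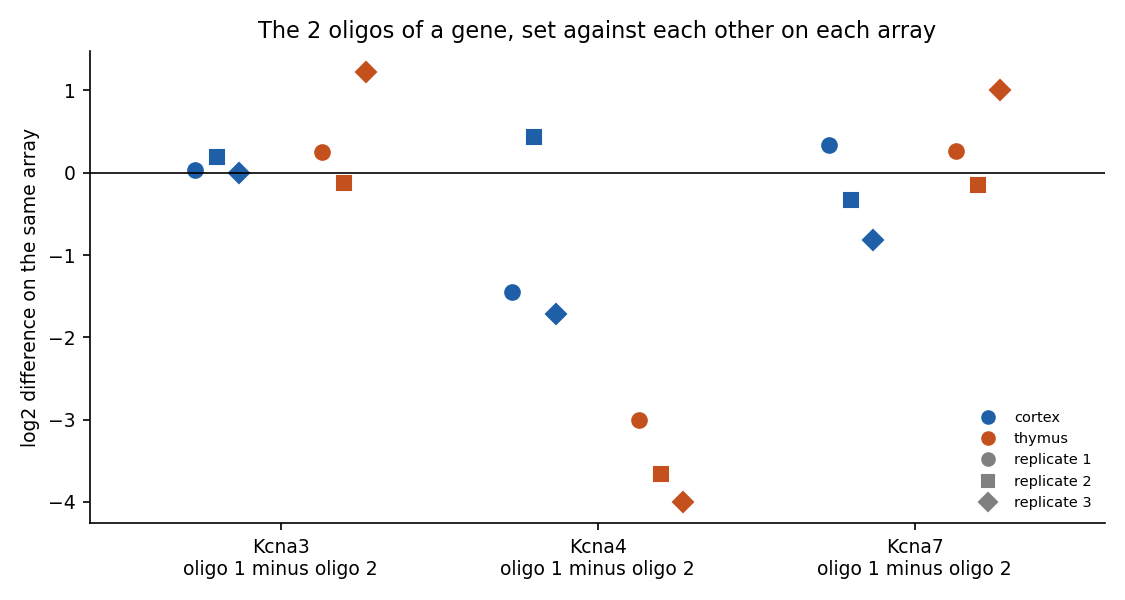
Log2 difference between oligo 1 and oligo 2 of Kcna3, Kcna4 and Kcna7 on each array (circles, squares and diamonds are replicates 1, 2 and 3). For Kcna4 the thymus arrays lie between -4.00 and -3.01 and all cortex arrays lie above them, while the tissues overlap for Kcna3 and Kcna7.

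Opposite calls for the 2 oligos of 1 entry were uncommon on the array. Of 172 entries with both oligos tested, 7 (4.07%) were called in opposite directions, and Kcna4 was among them. In 18 entries (10.5%), Kcna3 and Kcna7 included, both oligos were called higher in thymus. The gap between the 2 differences was 2.65 log2 units for Kcna4, 0.64 for Kcna7 and 0.38 for Kcna3, against a median of 0.69 over the 172 entries. A larger gap was seen in 92 entries for Kcna7 and in 126 for Kcna3. The Kcna4 gap, and its place among the opposite calls, rest on thymus values of oligo 1 that were not above background, so its size is not ranked.

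Other voltage-gated potassium channel genes and accessory subunits were called in both directions. Of 34 such oligos (17 entries), 27 were tested; 9 were called higher in cortex, 5 higher in thymus and 13 did not pass, with a median difference of 0.18 log2 units. As shares of the 27 these are 33.3% and 18.5%, beside 24.3% and 23.7% over all tested oligos. Toward cortex the smallest p-value was at oligo 2 of Kcnd2, an A-type channel of neuronal dendrites. This oligo was not above background on any thymus array. Only an approximate bound thus holds: set against the same kind of floor, its level in cortex was 3.71-fold that in thymus. The p-value (adjusted p = 1.93e-06, limma) tests the fitted difference of 3.57 log2 units, which uses those thymus values, and not the bound. The oligo passed the filter only through its cortex arrays. Toward thymus the smallest p-values were at oligos of Kcne3 and Kcne1, accessory subunits of voltage-gated potassium channels, and Kcns2, a silent subunit that assembles with other channels. Kcne3 oligo 2 differed by -2.50 ± 0.42, Kcns2 oligo 2 by -1.40 ± 0.37 and Kcne1 oligo 1 by -1.31 ± 0.37 (adjusted p = 0.000138, 0.00527 and 0.00771, limma). Kcne3 oligo 2 was above background on 2 cortex and 3 thymus arrays, and Kcne1 oligo 1 on 2 of each tissue. Kcns2 oligo 2 was above background on 3 cortex arrays but 1 thymus array, so its call rests mostly on thymus values not above background. Kcne3 oligo 1 was above background on 2 arrays and was not tested. Oligo 1 of Kcns2 was not tested, because it was above background on only 2 arrays, both of cortex. Its direction was opposite to that of oligo 2. From 2 values per tissue its scaled difference was 3.03 log2 units, higher in cortex, and this uses thymus values not above background. In the rest of the potassium channel class, outside the kv1 series, 31 of 99 tested oligos (31.3%) were called higher in cortex and 17 (17.2%) higher in thymus, beside the same 24.3% and 23.7%.

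**Figure D5:**
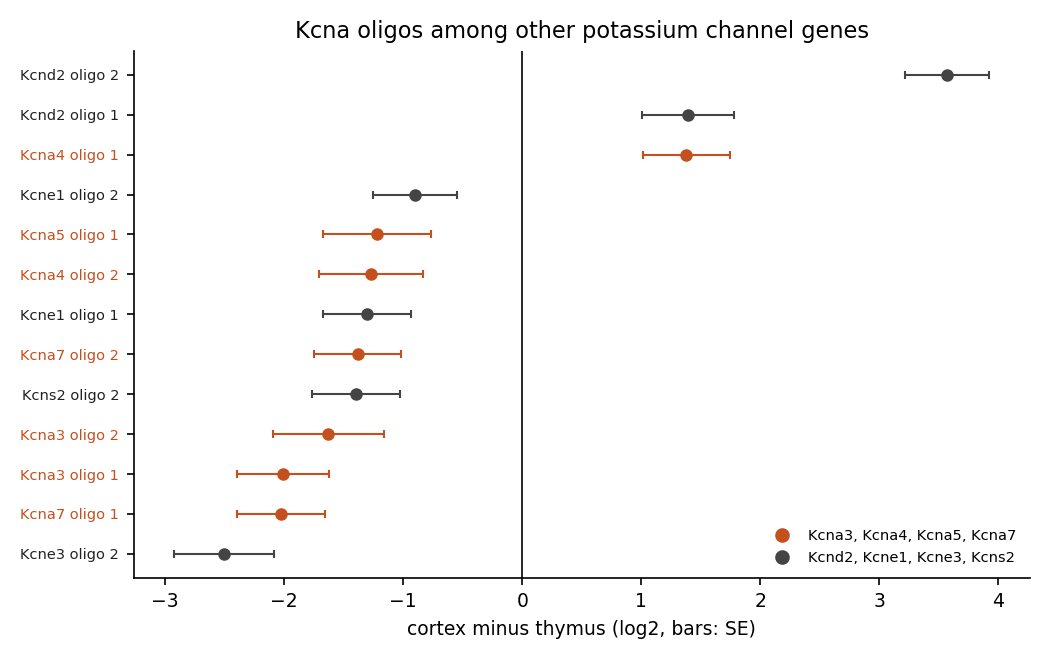
Cortex minus thymus difference (log2, whiskers SE) of the 7 tested Kcna oligos (orange) and the tested oligos of Kcnd2, Kcne1, Kcne3 and Kcns2 (grey), under quantile scaling; all 13 have an adjusted p under 0.05. The 6 Kcna oligos on the thymus side lie between -2.02 and -1.22 and Kcna4 oligo 1 lies at 1.38.

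Profiles most like each Kcna gene over the 6 arrays were found through its brighter oligo, as a description without a test; the arrays share 2 tissues, so any oligo with the same direction scores high. For Kcna3 these were a control entry printed Ppox.1 (Pearson's r = 0.992), an oligo of Pomc, the precursor of several peptide hormones (0.990), and Kcna7 oligo 2 (0.981). For Kcna7 they were oligo 1 of the entry printed PRL R (0.996) and oligo 2 of that printed CRH R (0.979). The third was an oligo of Adrb3, an adrenergic receptor (0.979). Oligo 2 of PRL R was called in the other direction, higher in cortex by 2.88 log2 units. For Kcna4, through oligo 2, they included oligo 1 of Vipr2, a receptor for vasoactive intestinal peptide (0.964), and oligo 1 of Chrna6, a nicotinic receptor subunit (0.959). For Kcna5 they were oligo 1 of an entry printed rsk3 (0.961) and oligo 2 of Gabrb2, a GABA-A receptor subunit (0.930). The third was oligo 1 of Scn4a, the muscle sodium channel (0.920). None of these oligos was called in either direction. Oligo 1 of Gabrb2 was called higher in cortex, by 1.04 log2 units.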

How the data were processed

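The deposited intensity values are scanner units without normalization, 1 median per spot beside that of its local background, per the file headers. The pixel SDs of the background, deposited as a further signal column, and the deposited flag of bad spots were also read. The authors' value table holds 20 probes, none of a Kcna oligo, and was not used. Foreground medians were corrected with normexp (offset 50, all spots) in limma 3.58.1 (R 4.3.3), flagged and control spots were left out, spots of an oligo averaged on the log2 scale, and arrays quantile-scaled. An oligo was tested when 3 or more of the 6 arrays showed it above background and each tissue had 2 or more values, which left 465 of 590. These were fitted with lmFit and eBayes, two-sided, with Benjamini-Hochberg adjustment over all 465 and a threshold of 0.05. The fit was tested on simulated data. Within-array differences used exact permutation tests. The rule for named genes takes every Kcna oligo, the 3 most similar profiles per gene and the 3 smallest p-values in each direction of the partners list; some genes it takes are not reported here. Members and lists were chosen with earlier results of these data known. Promoters were searched with Python 3.11.15 and figures drawn with matplotlib 3.10.9. The number of arrays limits the precision.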

Additional observations from a re-analysis of the deposited data

How the results depend on the processing

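Each of the 7 tested Kcna oligos kept its direction in every setting in which it was tested, but the calls did not all hold. Besides the main fit, Kcna4 oligo 1 was tested in 17 settings, Kcna5 oligo 1 in 20, Kcna3 oligo 2 in 21 and the others in 22. Without scaling no oligo was called higher in thymus among the Kcna (0), partner (0) and all gene oligos (0), and differences were -0.98 and -0.62 for Kcna3 oligos 1 and 2, -0.36 for Kcna4 oligo 2, -0.24 for Kcna5 oligo 1, and -1.03 and -0.33 for Kcna7 oligos 1 and 2. With control centring 2 Kcna, 1 partner and 28 of all oligos were higher in thymus, with -1.01 for Kcna3 oligo 2, -0.74 for Kcna4 oligo 2, -0.62 for Kcna5 oligo 1 and -0.71 for Kcna7 oligo 2. Without background correction Kcna4 oligo 2 (-1.31) and Kcna5 oligo 1 (-1.93) missed the threshold, as they did with local background subtracted (-1.42 and -2.20). Kcna5 oligo 1 missed it with no filter (-1.22, with 582 oligos tested and an SE of 0.48) and with flagged spots kept (-0.87). Kcna4 oligo 2 missed it with scan setting as a block (-1.18). Requiring all 6 arrays above background left 186 oligos, which removes Kcna4 oligo 1: 0 Kcna, 3 partner and 18 of all oligos were higher in cortex, and 1 partner and 63 of all higher in thymus. Without the 2 arrays of the second scan setting, a choice made after seeing the data, 0 Kcna, 3 partner and 44 of all oligos were higher in cortex and 3 Kcna and 66 of all higher in thymus, with -1.10 for Kcna3 oligo 2 and -1.63 for Kcna4 oligo 2. Values within scan settings 1 and 2 were -1.48 and -2.55 for Kcna3 oligo 1. They were -2.67 in setting 2 for Kcna3 oligo 2, 0.92 in setting 1 for Kcna4 oligo 1 and -1.42 in setting 1 for Kcna7 oligo 1.

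Leaving out each array in turn gave 0 to 1 Kcna oligos higher in cortex and 3 to 6 higher in thymus. Kcna4 oligo 1 fell below the filter without any 1 cortex array. Over all oligos the counts were 46 to 115 and 65 to 104, and for partners 3 to 10 and 2 to 5. Differences ranged from -2.31 to -1.66 and from -2.08 to -0.99 for Kcna3 oligos 1 and 2, from 1.16 to 1.68 and from -1.63 to -0.70 for Kcna4, from -1.60 to -0.81 for Kcna5 oligo 1, and from -2.22 to -1.83 and from -1.54 to -1.13 for Kcna7. The contrast between the 2 Kcna3 oligos was -0.38, with a range of -0.66 to 0.0070, and turned sign without thymus replicate 3. Where no cause is given, the cause was not tested.

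Deviations of same-numbered arrays of the tissues correlated weakly (r = 0.167, -0.090 and 0.011), and only replicate 1 had its own number as best partner. These values cannot settle whether the numbers pair arrays, and the main fit took no pairing. With a replicate block 6 Kcna oligos were higher in thymus and 1 in cortex, and over all oligos 101 and 109. The deposited value table holds none of these oligos and could not be run.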
